A study of Mus musculus with 6 samples.

Results

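Capillary endothelial cells of the mouse hypothalamus were selected from Drop-seq data by a rule on unique molecular identifiers (UMIs), and 581 of 9449 passing cells met it. To pass, a cell needed 300 or more genes with a UMI, and no more than 20% of its UMIs could be mitochondrial. A chosen cell had at least 3 UMIs over 6 endothelial genes (Cldn5, Flt1, Ly6c1, Pecam1, Itm2a and Ptprb) and at most 1 UMI over 6 genes of neurons, mural cells, microglia and oligodendrocytes (Snap25, Syt1, Kcnj8, Acta2, C1qa and Mog). It had 0 UMIs over the arterial genes Sema3g, Bmx, Edn1 and Gkn3 and the venous genes Vwf, Slc38a5 and Tmem252. These 19 genes chose the cells, so their levels are descriptions and carry no test.

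The cells came from 3 libraries of IDOL knockout mice (KO1, KO2 and KO3) and 3 libraries of wild-type mice (WT1, WT2 and WT3), all C57BL/6J and 8 weeks old. IDOL, encoded by Mylip, is a ubiquitin ligase that marks lipoprotein receptors for breakdown. Drop-seq captures single cells in droplets and counts the 3′ ends of their transcripts by UMI. Libraries of both genotypes were prepared over 2 days, but which library belongs to which day is not in the labels, and no within-day value could be computed. The labels gave neither the deleted part of Mylip nor whether each library was its own animal, so p-values measure the spread between libraries.

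Brain capillaries are where most exchange between blood and brain takes place. Their endothelial cells are sealed by tight junctions, take up glucose, amino acids and lipids through carriers, and pump many drugs back into the blood. Gene expression in brain endothelium changes along the vessel from artery to vein. Some regions of the hypothalamus, such as the median eminence, have leaky capillaries that carry Plvap, the protein of the diaphragm across their pores.

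Of the chosen cells, 78, 98 and 198 came from KO1, KO2 and KO3, and 86, 55 and 66 from WT1, WT2 and WT3. Their summed UMIs per library lay between 78710 and 242767 in the KO libraries and between 47736 and 222842 in the WT libraries. A cell held a median of 613, 588 and 651 UMIs in KO1, KO2 and KO3, and of 686, 609 and 569 UMIs in WT1, WT2 and WT3, so depth overlapped between genotypes. The median mitochondrial share was 9.56, 7.82 and 3.05% in the KO libraries and 6.44, 5.31 and 7.60% in the WT libraries, lowest in KO3. In the series 3 barcode sequences occurred in 2 libraries each, and 0 chosen cells carried one. Scrublet called 15 of the chosen cells doublets.

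The label was less well borne out in some cells, which differed in the number of endothelial genes behind their UMIs. In 484 cells the UMIs came from 3 or more of the 6 genes. In the other 97 cells (16.7%) they came from 1 or 2, in 35 of them from Itm2a alone. Cldn5, the claudin that seals brain endothelium, had a UMI in 177 of the 484 cells and in 0 of the 97, but as a gene of the rule it is partly fixed by this division. The 51 cells with 2 genes had a median of 609 UMIs, near the 598 of the 484, and the 46 with 1 gene a median of 1969.5. The 97 cells supplied 55.5% of all UMIs of the 581. That share was 42.7, 57.8 and 51.0% in KO1, KO2 and KO3, and 74.7, 47.2 and 12.1% in WT1, WT2 and WT3. All 22 cells with more than 4000 UMIs were among them, the deepest with 47220 UMIs, while the deepest of the 484 had 3428.

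**Figure D1:**
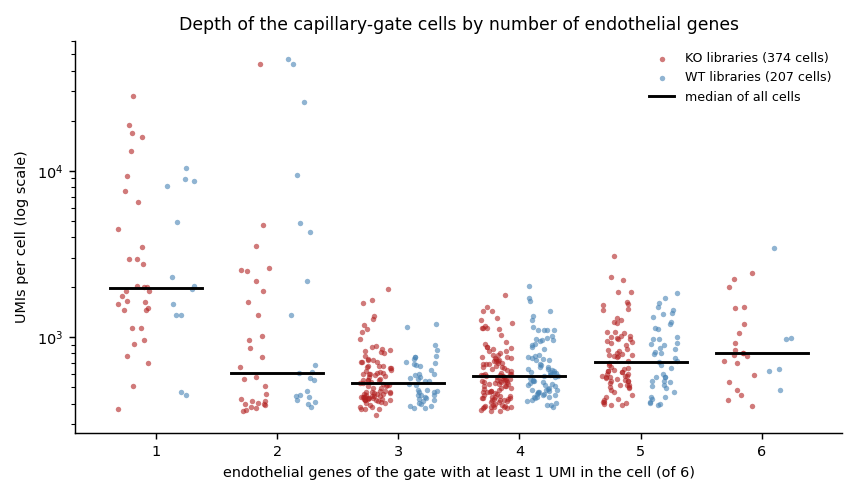
UMIs per cell (log axis) for all 581 capillary-gate cells, by how many of the 6 endothelial genes had a UMI, with KO cells left of WT cells and a line at the median of all cells. The 46 cells with 1 gene had a median of 1969.5 UMIs, the 51 cells with 2 genes a median of 609 UMIs, and the 137 cells with 3 genes a median of 533 UMIs and a maximum of 1946.

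Markers that the rule did not use were rarer in the cells with fewer genes. Slco1a4 (an organic anion carrier), Car4 (a carbonic anhydrase anchored to the capillary lumen) and Ctla2a (a cysteine protease inhibitor) mark brain capillary endothelium. At least 1 UMI of them was found in 453 of the 484 cells (93.6%) and in 33 of the 97 (34.0%). The 18 genes of a capillary list together reached 17416 CPM (the UMIs of a gene scaled to a fixed total per library) in the pooled 484 cells and 1231 CPM in the pooled 97. By number of endothelial genes, the same sum was 883, 1563, 15703, 17858, 18079 and 17914 CPM in cells with 1, 2, 3, 4, 5 and 6 genes. Deep cells weigh most in such pooled sums. Counted by cells, the share with a UMI of the 3 markers was 13.0, 52.9, 89.1, 94.3, 96.8 and 96.3% in the same order, so cells with 2 genes lay between those with 1 and those with 3.

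The leading genes of the 97 cells were ranked by their level relative to the 484. That ranking favours genes of other cell types, as the 484 were rich in endothelial RNA, so it does not name the 97. As the mean of 6 libraries, Ptgds, a prostaglandin synthase of meninges and glia, stood at 13235 CPM, against 501 CPM in the 484. Nnat, an imprinted gene of neural tissue, stood at 5496 CPM, against 238 CPM in the 484. Mgp, a calcification inhibitor made by arteries and fibroblasts, stood at 5118 CPM, against 279.6 CPM in the 484. The collagen gene Col1a2 stood at 1144 CPM, against 68.9 CPM in the 484, and the growth factor gene Igf2 at 1784 CPM, against 143 CPM in the 484. Ptgds and Nnat stood higher in the 97 than in the 484 in 6 of 6 libraries, Mgp and Col1a2 in 5, and Igf2 in 4. The 8 fibroblast markers summed to 4138 ± 3546 CPM in the 97 cells (SD, n = 6 libraries), so the libraries differed widely. The sum was 250.3 ± 239 CPM in the 484 and 360.3 ± 254 CPM in cells outside the endothelial gate. The 11 astrocyte markers summed to 6671 ± 3063, 2481 ± 774 and 5740.2 ± 959 CPM in the same classes. Because markers outside the rule were rarer in the 97, the 581 are called capillary-gate cells. Their levels are described on the 484, a subset chosen after the data had been seen, and genotypes are compared in both.

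The promoters of the 3 markers outside the rule are shown because these genes serve as the check of the label; venous-gate cells carry them as well. Each line gives the 250 bases before the RefSeq start site (build GRCm38.p6), 5′ to 3′ on the strand of the gene. Capitals mark AGGAAG or its reverse complement CTTCCT, a form of the site of ETS factors such as ERG and FLI1, and AACAAT or its reverse complement ATTGTT, a form of the site of SOX factors. Both strands were searched, and overlapping matches run together.
Slco1a4: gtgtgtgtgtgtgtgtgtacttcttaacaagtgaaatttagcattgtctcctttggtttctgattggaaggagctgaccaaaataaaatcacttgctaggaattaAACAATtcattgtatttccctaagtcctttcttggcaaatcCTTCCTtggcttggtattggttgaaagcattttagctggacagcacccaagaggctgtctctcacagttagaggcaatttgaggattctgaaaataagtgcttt
Car4: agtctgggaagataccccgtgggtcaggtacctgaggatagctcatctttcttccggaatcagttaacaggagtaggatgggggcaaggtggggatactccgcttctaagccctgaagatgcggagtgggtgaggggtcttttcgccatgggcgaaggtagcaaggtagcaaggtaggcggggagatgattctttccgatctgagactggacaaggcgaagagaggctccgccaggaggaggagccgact
Ctla2a: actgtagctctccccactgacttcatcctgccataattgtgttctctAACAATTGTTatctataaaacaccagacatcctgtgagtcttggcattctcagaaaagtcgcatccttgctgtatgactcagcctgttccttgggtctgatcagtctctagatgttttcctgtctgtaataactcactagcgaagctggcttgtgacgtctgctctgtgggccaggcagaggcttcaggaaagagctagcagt
The windows lie at chr6:141856221-141856470 (minus strand) for Slco1a4, chr11:84957504-84957753 (plus strand) for Car4 and chr13:60936626-60936875 (minus strand) for Ctla2a, at the first of its listed starts. Slco1a4 held 1 ETS and 1 SOX match, Ctla2a held 2 overlapping SOX matches, and Car4 held 0 of either. Of the markers in the rule, Flt1 held 2 ETS matches and Cldn5 held 0 of either. Of all 32851 promoter windows of this length, 29.5% held an ETS match and 9.42% a SOX match. A match describes these letters and is not a measured binding site.

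The 484 cells carried the genes of a sealed, carrier-rich endothelium. The levels that follow are means ± SD of 6 libraries, beside those of passing cells outside the endothelial gate, and since the rule chose endothelial cells they carry no test. Slco1a4 stood at 3319 ± 759.8 CPM, against 44.2 CPM outside. Slc2a1, the GLUT1 glucose carrier, stood at 2911 ± 626 CPM, against 166 CPM outside. The efflux pump genes Abcb1a (P-glycoprotein) and Abcg2 stood at 2086 ± 368 and 1330.3 ± 458 CPM, against 38.4 and 37.3 CPM outside. These genes were thus scarce outside the endothelial gate, while arterial-gate and venous-gate cells, described further on, carried them too. Slco1c1, a thyroxine carrier, stood at 1882 ± 186 CPM, against 46.4 CPM outside. Slc7a5 and Slc3a2, the chains of the large neutral amino acid carrier, stood at 739 ± 104 and 791 ± 259 CPM. Mfsd2a, which carries lysophospholipids into the brain, stood at 389.6 ± 78.2 CPM, against 82.7 CPM outside.

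Among genes outside the rule with at least 200 CPM in the 484 cells, the highest ratios to cells outside the gate were those of Pglyrp1 (a peptidoglycan recognition protein), at 612 against 4.97 CPM, and Ctla2a, at 1358 against 13.8 CPM. The sialomucin gene Emcn followed at 527 against 6.19 CPM, and Nostrin, which binds endothelial nitric oxide synthase, at 986 against 12.3 CPM. Then came Slco1a4, Clic5, the chemokine gene Cxcl12 and Car4. Of the 20 leading genes, 16 also led in all 581 cells. Kdr and Tek, the receptors for VEGF and angiopoietins, stood at 495 ± 162 and 572 ± 224 CPM. The ETS factor genes Erg, Fli1 and Ets1 stood at 373 ± 102, 223 ± 73.5 and 433 ± 119 CPM. Lef1 and Foxq1, transcription factors tied to the Wnt-driven barrier, stood at 530.0 ± 145 and 338 ± 114 CPM, against 14.1 and 9.22 CPM outside.

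Single cells showed the same carriers. After each cell was thinned to 500 UMIs, which left 332 of the 484 cells, Slco1a4 had a UMI in 75.6% (exact 95% interval 70.6% to 80.1%) and Slc2a1 in 75.6%. Abcb1a had a UMI in 60.8%, Ctla2a in 44.0%, Car4 in 41.0% and Mfsd2a in 19.6%. In neuron-like cells, defined by 3 or more Snap25 and Syt1 UMIs and thinned alike, the shares were 0.132% for Slco1a4, 1.19% for Slc2a1, 0.264% for Abcb1a, 0.264% for Ctla2a, 0.132% for Car4 and 0.461% for Mfsd2a. The capillary shares therefore lay far above this background. Without thinning, Slco1a4 was seen in 81.8% and Car4 in 49.0% of the 484 cells at a median of 598 UMIs, and in 0.703% and 0.895% of neuron-like cells at a median of 2652 UMIs.

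Plvap was scarce in these capillaries. It had a UMI in 2 of the 484 cells (0.413%), in 0 of the 97, in 0 of 191 arterial-gate cells and in 0 of 139 venous-gate cells. Thinned to 500 UMIs, 0.301% of the 484 cells and 1.19% of neuron-like cells had a Plvap UMI. The capillary share thus did not exceed that of neuron-like cells. Without thinning, 161 of 1564 neuron-like cells (10.3%) had a Plvap UMI, at their greater depth. A list of 10 fenestrated capillary genes, Kdr among them, summed to 1612 ± 332 CPM in the 484 cells, against 927 CPM outside the gate. The sum was 1284 CPM in arterial-gate and 1475 CPM in venous-gate cells. Plvap thus stands for itself and not for that list. Whether the rule passes over capillaries with Plvap was not tested.

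RNA typical of neighbouring cells was present too. Rgs5, a pericyte gene, stood at 2533 ± 354 CPM in the 484 cells, against 198 CPM outside the gate, and the 12 mural cell markers summed to 4306 ± 584 CPM. The 10 oligodendrocyte markers summed to 4557 ± 2111 CPM, from 2439 CPM in KO1 to 8344 CPM in WT2, against 23550 CPM outside the gate. The 10 microglial markers summed to 120.0 ± 108 CPM. The 5 red blood cell markers summed to 4856, 6898 and 6358 CPM in KO1, KO2 and KO3, against 5776, 103 and 1812 CPM in WT1, WT2 and WT3. WT2 and WT3 were thus low in haemoglobin RNA and WT1 was not, and the part of this in other results was not tested.

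Along the vessel, the 484 cells were set beside 191 arterial-gate cells (an arterial and no venous UMI) and 139 venous-gate cells (a venous and no arterial UMI), all with 3 or more endothelial genes. A library held 14 to 61 arterial-gate and 16 to 36 venous-gate cells. The median was 598 UMIs in capillary-gate, 776 in arterial-gate and 779 in venous-gate cells. The rule split these classes, so their contrasts are descriptions without a test. At such depths a cell can lack UMIs of the arterial and venous genes of the rule and still carry their RNA. Capillary-gate cells can therefore include arterial and venous cells, and how many was not tested. Counts of list genes by class are given without the share over all genes, so they describe the lists only.

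The capillary list set the cells apart from arterial-gate more than from venous-gate cells. As means of 6 libraries, the list summed to 17546 ± 1239 CPM in capillary-gate, 12125 ± 2205 CPM in arterial-gate and 17092 ± 1752 CPM in venous-gate cells. The mean level was higher in capillary-gate than in arterial-gate cells for 18 of 18 genes, and higher than in venous-gate cells for 10 of 18. Car4 lay between 789.8 and 2169.8 CPM over the libraries in capillary-gate cells, between 279.6 and 644 CPM in arterial-gate cells and between 1261 and 2547 CPM in venous-gate cells. It was higher in capillary-gate than in arterial-gate cells in 6 of 6 libraries, and higher than in venous-gate cells in 0 of 6. Ctla2a stood at 1358 ± 228 CPM in capillary-gate, 283 ± 107 CPM in arterial-gate and 1515 ± 445 CPM in venous-gate cells. Tfrc, the transferrin receptor that brings in iron, stood at 738 ± 190.4 CPM in capillary-gate, 291 ± 127 CPM in arterial-gate and 946 ± 242 CPM in venous-gate cells. Both thus followed the order of Car4 in their means. Slc7a5 stood at 739 ± 104 CPM in capillary-gate, 341 ± 57.7 CPM in arterial-gate and 650.1 ± 144 CPM in venous-gate cells. Cxcl12 departed from that order, with 2428 ± 231 CPM in capillary-gate, 2349 ± 949 CPM in arterial-gate and 1206 ± 384 CPM in venous-gate cells, and exceeded the venous-gate level in 6 of 6 libraries.

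After thinning, Car4 was seen in 41.0% of capillary-gate, 13.0% of arterial-gate and 50.9% of venous-gate cells. The exact 95% intervals were 35.6% to 46.5%, 8.26% to 19.2% and 41.4% to 60.3%. Ctla2a was seen in 44.0%, 7.45% and 44.0% of the same classes. Both markers were thus rarer in arterial-gate cells among the cells deep enough to be thinned. These were 332 of 484 capillary-gate, 161 of 191 arterial-gate and 116 of 139 venous-gate cells. The intervals pool the cells of 6 libraries and cover counting error only. All 3 markers outside the rule had a higher mean level in venous-gate cells than in capillary-gate cells. Slco1a4 stood at 3319 ± 759.8, 2694 ± 452 and 3578 ± 620.5 CPM (SD, n = 6 libraries) in capillary-gate, arterial-gate and venous-gate cells. Other carriers lay closer together, with Abcb1a at 2086, 1636 and 2386 CPM, Slc2a1 at 2911, 2996 and 3088 CPM and Slco1c1 at 1882, 1803 and 1687 CPM in capillary-gate, arterial-gate and venous-gate cells.

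Of 18 arterial genes outside the rule, 0 had a higher mean in capillary-gate than in arterial-gate cells. Tm4sf1, a membrane protein of the L6 family, stood at 650.0 ± 124 CPM in capillary-gate, 2070.1 ± 354 CPM in arterial-gate and 473 ± 174 CPM in venous-gate cells. Mgp stood at 279.6 ± 107 CPM in capillary-gate, 1819 ± 868 CPM in arterial-gate and 290.2 ± 311 CPM in venous-gate cells. Sox17, a transcription factor of arterial fate, stood at 442 ± 65.8 CPM in capillary-gate, 797 ± 136 CPM in arterial-gate and 446 ± 191 CPM in venous-gate cells. In all 6 libraries these 3 genes were lower in capillary-gate than in arterial-gate cells. The Notch target gene Hey1 stood at 47.2, 158 and 21.5 CPM in capillary-gate, arterial-gate and venous-gate cells. The mural cell markers moved with these genes, at 4306, 7178 and 3505 CPM, and their part was not tested.

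Of 14 venous genes outside the rule, 2 had a higher mean in capillary-gate than in venous-gate cells. The leukocyte adhesion gene Icam1 stood at 52.0 ± 47.6 CPM in capillary-gate, 11.7 ± 28.7 CPM in arterial-gate and 225 ± 129.6 CPM in venous-gate cells. The interleukin receptor gene Il1r1 stood at 28.0 ± 22.9 CPM in capillary-gate, 17.0 ± 29.1 CPM in arterial-gate and 123 ± 44.1 CPM in venous-gate cells. In all 6 libraries both genes, and the adhesion gene Vcam1, had a lower CPM in capillary-gate than in venous-gate cells. These orders rested on few UMIs. Icam1 in WT1 and Vcam1 in WT3 had 1 UMI in each of these 2 classes. Il1r1 in WT3 had 0 UMIs in capillary-gate and 1 UMI in venous-gate cells. Fos, an immediate early gene, stood at 2659.6 ± 1042 CPM in capillary-gate, 4145 ± 1364 CPM in arterial-gate and 4964 ± 1519 CPM in venous-gate cells, and it too was lower in capillary-gate cells than in either other class in all 6 libraries.

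**Figure D2:**
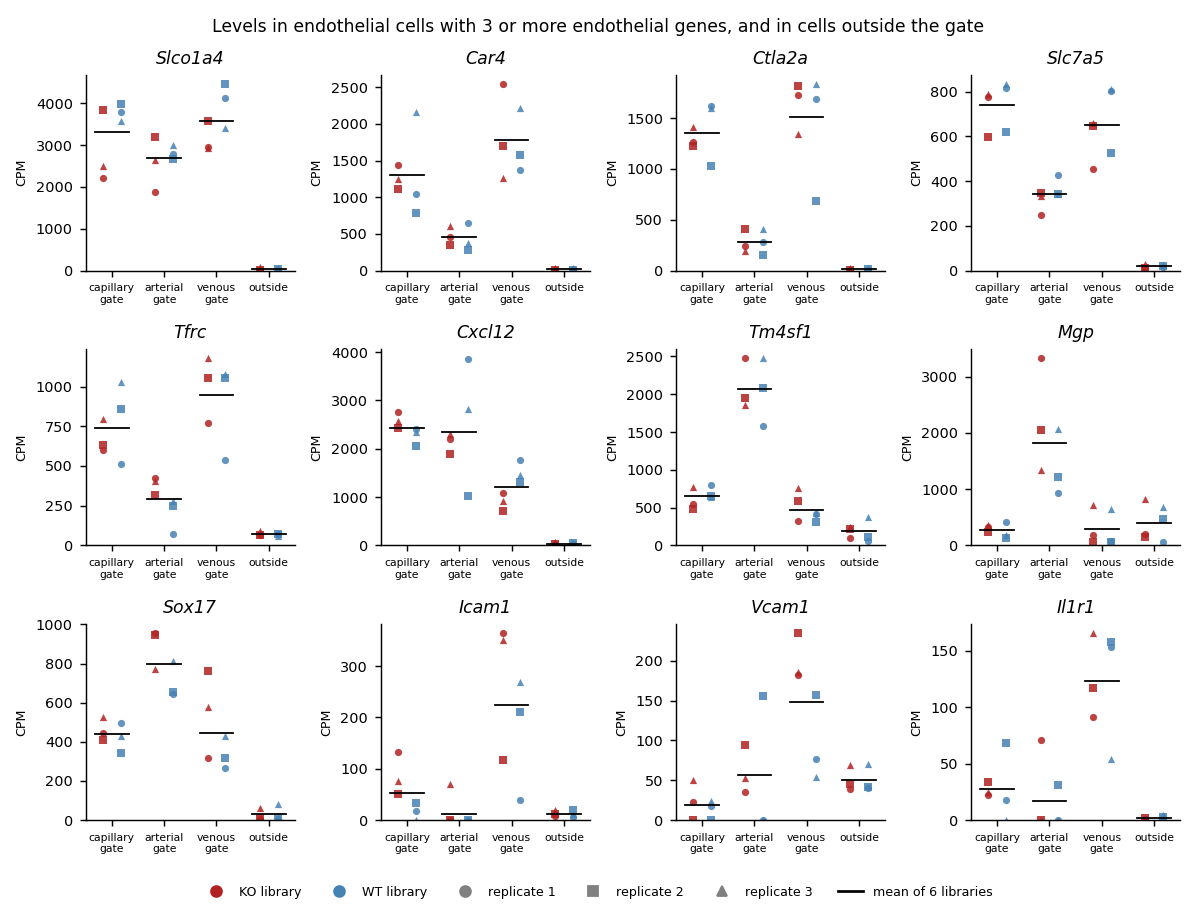
CPM of 12 genes per library in capillary-gate, arterial-gate and venous-gate cells with 3 or more endothelial genes and in cells outside the gate. Each point is a library, KO left of WT, and the line is the mean of 6; Car4 averages 1299.9 CPM in capillary-gate and 453 CPM in arterial-gate cells, and Tm4sf1 650.0 and 2070.1 CPM.

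Cells at the edges of the rule had these values. The 35 cells with exactly 3 endothelial UMIs had 1878 CPM of the 18 capillary genes, and the 82 otherwise matching cells with 2 endothelial UMIs had 1409.7 CPM. The 59 chosen cells with 1 UMI of other cell types had 6739.7 CPM, and the 28 left out with 2 such UMIs had 11807 CPM. The 581 cells with 0 arterial and venous UMIs had 8438 CPM, and the 180 cells left out for 1 such UMI had 10759 CPM.

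The first question between genotypes was how many capillary cells were captured. Capillary-gate cells made up 5.24, 5.19 and 10.1% of passing cells in KO1, KO2 and KO3, against 4.52, 5.25 and 5.66% in WT1, WT2 and WT3. The groups overlapped, and KO3 alone stood high. The KO mean of 6.86 ± 2.84% exceeded the WT mean of 5.14 ± 0.577% by 1.71 percentage points (SD, n = 3 each; two-sided exact permutation p = 0.60, where the smallest p possible is 0.1). Without KO3 the difference was 0.072 percentage points. Of all endothelial-gate cells they made up 56.9, 59.4 and 61.7% in the KO libraries and 62.3, 55 and 50% in the WT libraries, a difference of 3.56 percentage points (exact permutation p = 0.50).

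**Figure D3:**
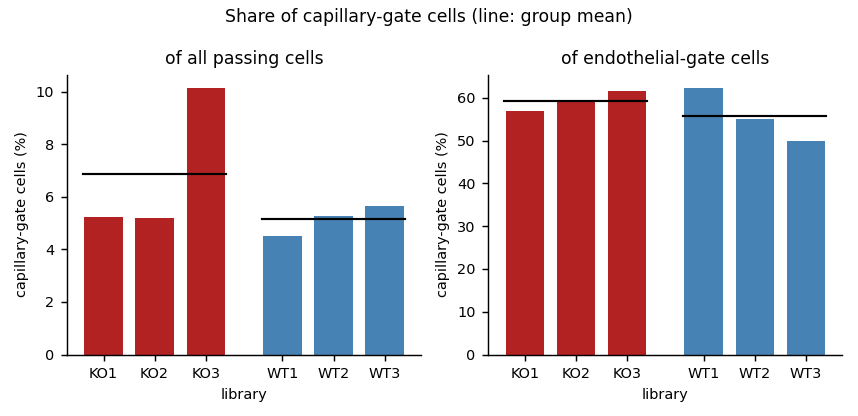
Capillary-gate cells as a percentage of passing cells (left) and of endothelial-gate cells (right) in each library, KO left of WT, with lines at the group means. KO3 reaches 10.1% of passing cells, and the groups overlap in both panels.

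Mylip (chr13:45389742-45412022, GRCm38) had 0, 0 and 0 UMIs in KO1, KO2 and KO3, against 7, 1 and 3 UMIs in WT1, WT2 and WT3, over the 581 cells. It had 0, 0 and 0 UMIs in the KO libraries, against 3, 1 and 3 UMIs in the WT libraries, over the 484. With 3 UMIs put in for KO and the WT UMIs as counted, it was 5.19-fold lower in KO than in WT capillary-gate cells. The same ratio was 4.08 in the 484. Resting on 11 and 7 WT UMIs, these ratios leave out counting error and are not lower limits. Outside the endothelial gate it had 2, 0 and 0 UMIs in the KO libraries, against 57, 25 and 36 UMIs in the WT libraries. Every KO library thus lay below every WT library, as labelled, though 3′ tags check only the end of the transcript. Its edgeR test over so few UMIs did not pass (adjusted p = 0.999 in the 581 cells).

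Between KO and WT capillary-gate cells, 0 of 2385 tested genes passed an adjusted p of 0.05 in edgeR's quasi-likelihood test (0%), and 74 had an unadjusted p under 0.05 (3.1%), 48 higher in KO (2.01%) and 26 lower (1.09%). DESeq2 also called 0, with 37 under 0.05. KO and WT libraries did not overlap for 168 genes (7.04%), 99 of them higher in KO (4.15%) and 69 lower (2.89%). Over the 484 cells 0 of 1001 genes passed (0%), while an unadjusted p under 0.05 was found for 44 (4.4%). Of these 44 genes, 15 were higher (1.5%) and 29 lower in KO (2.9%). Groups did not overlap for 95 genes (9.49%), 41 higher (4.1%) and 54 lower in KO (5.39%). These counts do not show that the genotypes were alike.

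The capillary markers overlapped between genotypes. In the 484 cells Slco1a4 (chr6:141805440-141856199) had 2217, 3849 and 2503 CPM in KO1, KO2 and KO3, against 3785, 3983 and 3577 CPM in WT1, WT2 and WT3. Car4 (chr11:84957786-84966044) had 1441, 1107 and 1243 CPM in the KO libraries, against 1049, 789.8 and 2169.8 CPM in the WT libraries. Ctla2a (chr13:60934155-60936625), whose near-copy Ctla2b can share its reads, had 1264, 1226 and 1411 CPM in the KO libraries, against 1617, 1030.2 and 1598 CPM in the WT libraries. The log2 fold changes, KO over WT ± SE, were -0.39 ± 0.26 for Slco1a4, -0.10 ± 0.33 for Car4 and -0.14 ± 0.26 for Ctla2a, with edgeR adjusted p-values of 0.920, 0.959 and 0.959. In all 581 cells they were -0.55 ± 0.44, -0.40 ± 0.65 and -0.23 ± 0.45, and without WT3 the fold changes of Car4 and Ctla2a were 0.93 and 0.45. WT3 was the library with the smallest share of UMIs from the 97 cells. The summed capillary list stood at 15986, 17374 and 16706 CPM in KO1, KO2 and KO3, against 19086, 17169.7 and 18956 CPM in WT1, WT2 and WT3 in the 484 cells, and at 10024, 7799 and 8984 CPM, against 5488, 9652 and 17283 CPM, in the 581.

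**Figure D4:**
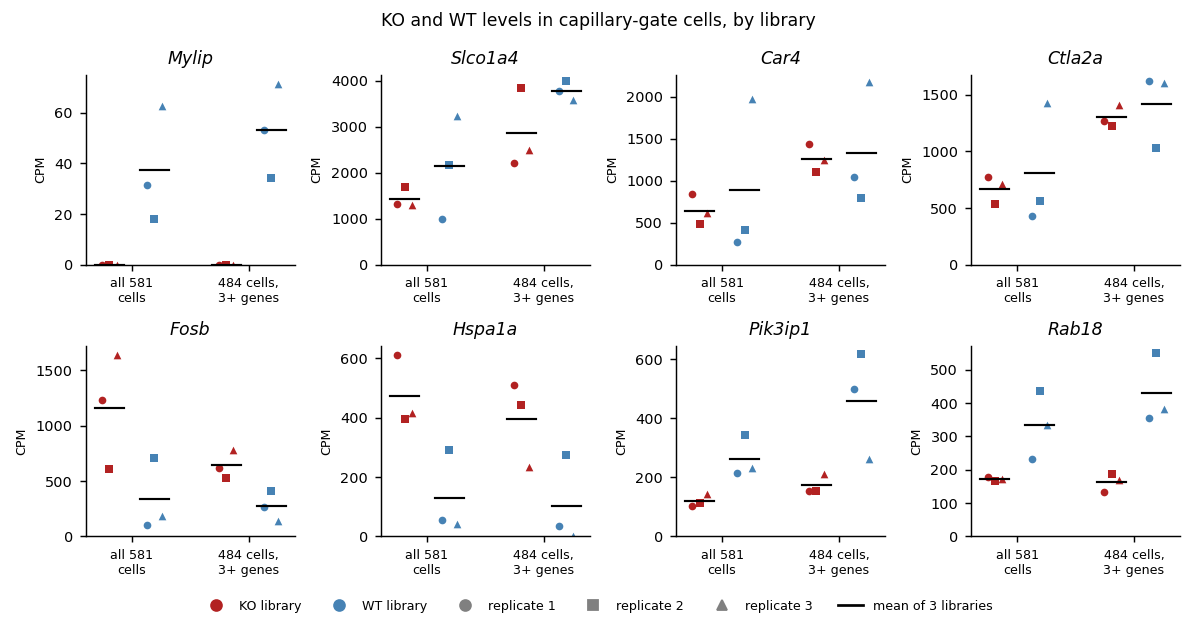
CPM of 8 genes per library, KO left of WT, for all 581 capillary-gate cells and for the 484 with 3 or more endothelial genes; points are libraries and lines are means of 3. In the 484 cells Fosb is higher in every KO library than in any WT library (log2 fold change 1.30 ± 0.34), and Car4 overlaps (-0.10 ± 0.33); in the 581 cells Fosb overlaps too.

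The genes with the smallest p-values and no overlap in the 581 cells had varied functions, and none passed (edgeR adjusted p = 0.999 for each). Rpl17, a ribosomal protein gene whose pseudogene copies make its counts uncertain, had 165, 93.4 and 157 CPM in the KO libraries, against 22.4, 18.1 and 41.9 CPM in the WT libraries (log2 fold change 2.37 ± 0.53). Itpr2, a calcium channel of the endoplasmic reticulum, had 127, 136 and 165 CPM in the KO libraries, against 44.9, 72.6 and 62.8 CPM in the WT libraries (1.35 ± 0.39). Gabbr1, a subunit of the GABA-B receptor, had 12.7, 64.6 and 70.0 CPM in the KO libraries, against 188, 145 and 126 CPM in the WT libraries (-1.56 ± 0.48). Also higher in value were Prg4 (3.94 ± 1.29), Emb (3.54 ± 1.02), Bche (3.44 ± 0.99), Ppp1r15a (1.41 ± 0.40), Hspa1a (2.01 ± 0.61), Cpq (1.36 ± 0.43), Pmp22 (1.22 ± 0.39) and the globin gene Hbb-bs (1.16 ± 0.37, near-identical to Hbb-bt). Also lower in value were Serpine2 (-1.34 ± 0.44), Cpe (-1.34 ± 0.44), Nek7 (-1.13 ± 0.39), Lztfl1 (-1.15 ± 0.41), Sec14l1 (-0.95 ± 0.35), Xrn2 (-0.92 ± 0.34), Angel2 (-0.98 ± 0.38), Pik3ip1 and Rab18. The genotypes overlapped in the 484 cells for Ppp1r15a, Bche, Emb, Hspa1a, Hbb-bs, Cpq, Prg4, Serpine2, Cpe, Lztfl1 and Xrn2.

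Several of these values came mostly from the 97 cells, which held 99.8% of the UMIs of Prg4, 98.3% of Emb, 89.2% of Cpq, 83.6% of Cpe, 74.1% of Bche, 73.2% of Lztfl1, 72.3% of Gabbr1, 70.6% of Ppp1r15a, 62.8% of Hspa1a, 61.9% of Pmp22, 58.9% of Serpine2 and 58.7% of Xrn2. They held 48.0% or less of the UMIs of the others, and 3.09% of Hbb-bs. Cells low in a gene also lower its CPM, through the total that CPM divides by. Over the 581 cells the 5 red blood cell markers summed to 2782, 2916 and 3139 CPM in KO1, KO2 and KO3. These markers summed to 1472, 762 and 1592 CPM in WT1, WT2 and WT3 there. Over the 484, WT1 stood at 5776 CPM, within the KO range of 4856 to 6898 CPM. A single cell held 162 of the 485 UMIs of Prg4, the gene of lubricin. The summed fibroblast markers stood at 3709.8, 294 and 4255 CPM in KO1, KO2 and KO3, against 162, 1597 and 754 CPM in WT1, WT2 and WT3, over the 581 cells, and at 111, 153 and 731 CPM, against 213, 103 and 191 CPM, over the 484. Without the filter on low counts 57 genes passed in the 581 cells, Fosb and Hspa1a among them, and 55 of the 57 had most of their UMIs in the 97 cells. The 484 cells without that filter gave 2 such genes, Hspa1a and Ptgds. Ptgds had 66.5, 85.2 and 2360.1 CPM in KO1, KO2 and KO3, against 71.1, 378 and 47.7 CPM in WT1, WT2 and WT3 there, so KO3 alone stood apart.

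In the 484 cells Pik3ip1 (chr11:3330401-3342971), an inhibitor of phosphoinositide 3-kinase, had 155, 153 and 210.0 CPM in KO1, KO2 and KO3, against 498, 618 and 262 CPM in WT1, WT2 and WT3. Its log2 fold change was -1.33 ± 0.36 (edgeR adjusted p = 0.646), and -1.08 ± 0.34 in all 581 cells. Rab18, a small GTPase of lipid droplets and the endoplasmic reticulum, had 133, 187 and 168 CPM in the KO libraries, against 355, 549 and 382 CPM in the WT libraries (-1.33 ± 0.34, adjusted p = 0.646). For both genes every KO library lay below every WT library, in the 484 and in the 581 cells, and neither passed.

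Immediate early and stress genes, which respond to cell activation and also to tissue dissociation, had mostly positive fold changes. In the 581 cells 19 of 19 tested members had a positive log2 fold change (median 0.97), beside 49.3% of all tested genes (median -0.0064). In the 484 cells 12 of 16 were positive (median 0.37), beside 49.1% of all genes (median -0.015). None passed the adjusted threshold in either set. Fosb (chr7:19302696-19310051), an AP-1 transcription factor, had 621, 528 and 781 CPM in KO1, KO2 and KO3, against 267, 412 and 143 CPM in WT1, WT2 and WT3 in the 484 cells (1.30 ± 0.34, edgeR adjusted p = 0.646). In the 581 it overlapped, with 1232, 610.4 and 1639 CPM in the KO libraries, against 108, 708 and 189 CPM in the WT libraries (1.88 ± 0.65). Hspa1a, an inducible heat shock protein whose near-copy Hspa1b can share its reads, had 510.0, 443 and 235 CPM in the KO libraries, against 35.5, 275 and 0 CPM in the WT libraries (2.18 ± 0.67, adjusted p = 0.820). Those groups overlapped, while in the 581 they did not, with 609.8, 395 and 416 CPM in the KO libraries, against 53.8, 290.3 and 41.9 CPM in the WT libraries.

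The libraries did not divide by genotype alone. The sum of the 22 immediate early and stress genes in the 484 cells was 13902, 12451 and 13002 CPM in KO1, KO2 and KO3, against 9579, 17719 and 5317 CPM in WT1, WT2 and WT3. WT2 was the highest of the 6 libraries and WT3 the lowest. In the 581 cells the sum was 21992, 13135 and 21391 CPM in the KO libraries, against 5237, 18524 and 6641 CPM in the WT libraries. Fos had 3326, 2964 and 2931 CPM in the KO libraries, against 2381, 3640.0 and 715 CPM in the WT libraries in the 484 cells (0.49 ± 0.38), and Egr1 had 443, 511 and 605 CPM in the KO libraries, against 338, 515 and 71.5 CPM in the WT libraries (0.84 ± 0.40). The part of dissociation and of the day of preparation was not tested.

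Among capillary genes, 5 of 16 tested members had a positive log2 fold change in the 484 cells (median -0.097) and 5 of 16 in the 581 (median -0.14), beside 49.1% and 49.3% of all tested genes, and 0 passed. Without overlap in the 484, 1 of them was higher and 2 were lower in KO, beside 9.49% of all genes without overlap. Pglyrp1 had 421, 392 and 479 CPM in KO1, KO2 and KO3, against 1173, 515 and 691 CPM in WT1, WT2 and WT3 in those cells (-0.92 ± 0.31, edgeR adjusted p = 0.820), without overlap. Cxcl12 had 2749, 2436 and 2570.1 CPM in the KO libraries, against 2417, 2060.4 and 2337 CPM in the WT libraries (0.18 ± 0.23), higher without overlap. The median changed sign between the sets for solute carriers and for signalling genes. Among solute carriers, 7 of 16 tested members had a positive log2 fold change in the 484 cells (median -0.017) and 10 of 17 in the 581 (median 0.074), and 0 passed. In the 484, 1 solute carrier was higher and 1 was lower in KO without overlap, beside 9.49% of all genes. Slc2a1 was the lower, with 1929, 2334 and 3183 CPM in the KO libraries, against 3199, 3365 and 3457 CPM in the WT libraries (-0.42 ± 0.24, adjusted p = 0.920). Its groups lay next to each other in these cells, while in the 581 they overlapped. Slc6a6, with the smallest p of the list in the 484, had a positive log2 fold change (0.50 ± 0.28, edgeR adjusted p = 0.920). Among junction genes, 3 of 9 tested members had a positive log2 fold change in the 484 cells (median -0.14) and 4 of 11 in the 581 (median -0.070), and 0 passed. The efflux pump genes had log2 fold changes of 0.080 ± 0.26 for Abcb1a, 0.078 ± 0.36 for Abcc4 and -0.41 ± 0.32 for Abcg2. No tested carrier, pump or junction gene passed the adjusted threshold.

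Among genes of VEGF, angiopoietin and Notch signalling, 6 of 12 tested members had a positive log2 fold change in the 484 cells (median -0.024) and 8 of 14 in the 581 (median 0.086), and 0 passed. Within the 484, S1pr1 (chr3:115710433-115715072), a receptor for sphingosine 1-phosphate that supports the barrier, had 621, 630.2 and 529 CPM in KO1, KO2 and KO3, against 1066, 927 and 882 CPM in WT1, WT2 and WT3 (-0.71 ± 0.26, edgeR adjusted p = 0.820), without overlap. Kdr had 532, 647 and 579.5 CPM in the KO libraries, against 249, 343 and 619.9 CPM in the WT libraries (0.55 ± 0.33, adjusted p = 0.920), and WT3 lay within the KO range. Among endothelial transcription factors, 10 of 14 tested members had a positive log2 fold change in the 484 cells (median 0.12) and 8 of 16 in the 581 (median 0.069), with Fli1 at 0.78 ± 0.37 and Tsc22d1 at -0.55 ± 0.25 in the 484, and 0 passed. Among Wnt and barrier genes, 5 of 7 tested members had a positive log2 fold change in the 484 cells (median 0.27) and 5 of 9 in the 581 (median 0.16). Among basement membrane and integrin genes, 6 of 10 tested members had a positive log2 fold change in the 484 cells (median 0.11) and 9 of 13 in the 581 (median 0.15). Among glucocorticoid-responsive genes, 1 of 9 tested members had a positive log2 fold change in the 484 cells (median -0.25) and 7 of 13 in the 581 (median 0.14), so the median changed sign between the sets here too, with Cdkn1a at -1.05 ± 0.45 and Klf9 at 0.52 ± 0.29 in the 484. None of these passed either.

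**Figure D5:**
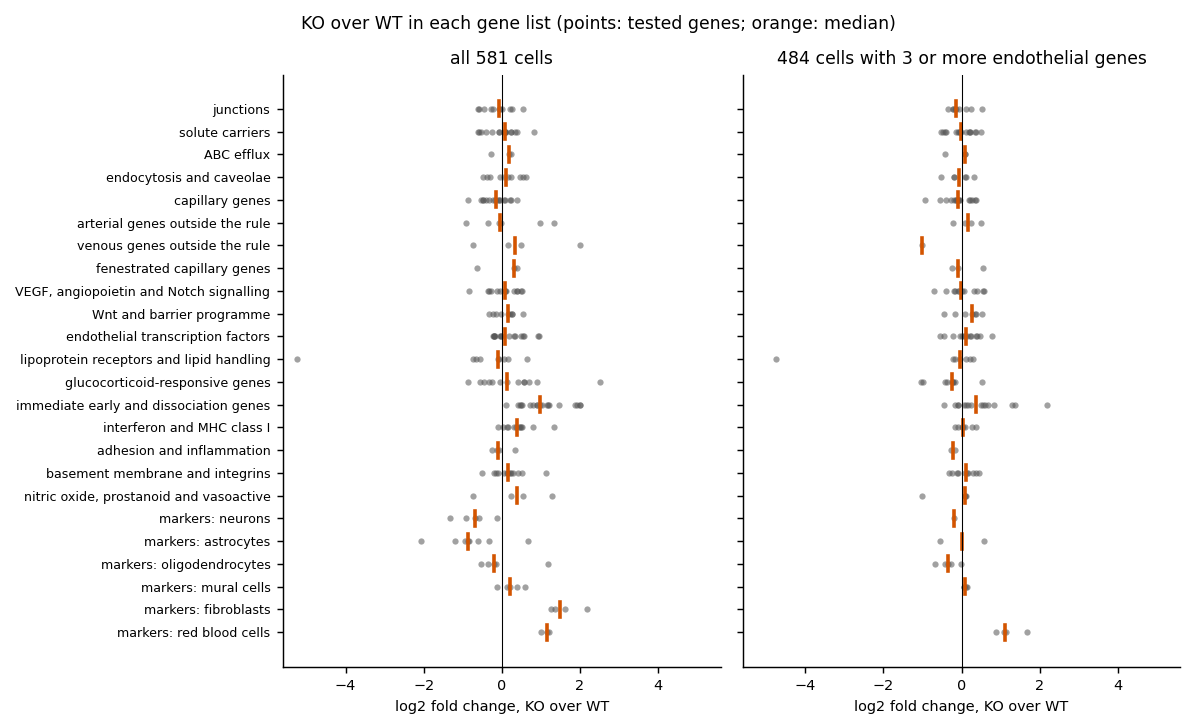
Log2 fold change (KO over WT) of each tested gene by list, for all 581 capillary-gate cells and for the 484 with 3 or more endothelial genes; the bar is the median of a list. Immediate early and stress genes have medians of 0.97 and 0.37, and fibroblast markers a median of 1.50 in the 581 cells, with 0 tested in the 484.

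Receptors that IDOL acts on were barely detected. Over the 581 cells Vldlr had 0, 0 and 3 UMIs in KO1, KO2 and KO3, against 4, 1 and 0 UMIs in WT1, WT2 and WT3. Lrp8, the reelin receptor also called ApoER2, had 7, 9 and 17 UMIs in the KO libraries, against 10, 3 and 8 UMIs in the WT libraries, or 88.9, 64.6 and 70.0 CPM in the KO libraries, against 44.9, 54.4 and 168 CPM in the WT libraries. Both overlapped between genotypes and were too low for the fit. IDOL acts on receptor protein, which these data do not measure. Apoe, the main apolipoprotein of the brain, had 1308, 1397 and 2251 CPM in the KO libraries, against 1439, 1374 and 2909 CPM in the WT libraries in the 484 cells (-0.21 ± 0.32, edgeR adjusted p = 0.959). Of 20 cholesterol synthesis genes, 0 were high enough to be tested.

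A test of the difference itself asked whether the effect of genotype differed between capillary-gate cells and cells outside the endothelial gate. With library as a block, 0 of 2385 genes passed in edgeR (0%), and 83 had an unadjusted p under 0.05 (3.48%). DESeq2 also gave 0, with 61 under 0.05. No difference between KO and WT is therefore called particular to capillary cells.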

How the data were processed

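The deposited tables hold raw UMI counts per gene and cell, made by the authors from Drop-seq reads. The submitters' processing notes name bcl2fastq, STAR 2.5.0c and mm10/GRCm38; strand handling is not given in the sources used here. The members and lists were chosen with earlier results of these data known.

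Cells were filtered at 300 genes and 20% mitochondrial UMIs, and the libraries held 1670993 to 4068886 UMIs. Counts of the chosen cells were summed per library and tested with edgeR 4.0.16 in R 4.3.3 (filterByExpr, TMM, quasi-likelihood F-test, Benjamini-Hochberg at 0.05). The rule's 19 genes stayed in the fit and out of counts. CPM divides by all UMIs of the summed cells. Shares were compared by two-sided exact permutation over libraries. Doublets were called with Scrublet in scanpy 1.11.5 and kept, except in an alternative. Thinned cells were drawn to 500 UMIs, leaving out 113 KO and 62 WT capillary-gate cells. Intervals cover counting error only. Gene coordinates are from GENCODE M21, which matched 93.9% of symbols. The fitting steps were tested on simulated data.

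Named genes were Mylip, the 5 markers, the 10 higher and 10 lower genes with the smallest p and no overlap, up to 4 genes per list with the smallest p, fixed lipid and receptor genes and the 20 genes with the highest ratio to other cells. Tsc22d1, Rbp4 and the leading genes of the cells with 1 or 2 endothelial genes were named after their values were seen. Alternatives changed the cell filters, the rule, the normalization, the count filter and the test (DESeq2 1.42.0), or left out a library. Some named genes are not reported here.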

Additional observations from a re-analysis of the deposited data

How the results depend on the processing

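Without the filter on low counts, 57 genes passed between KO and WT (49 higher, 8 lower) and 20 in the interaction; with 3 or more endothelial genes and no filter, 2 passed. Leaving out a library gave 0 to 1 genes (Rbp4, without KO2) and 0 in the interaction. With a replicate block, 0 genes passed (27 with an unadjusted p under 0.05), and the shares differed by 1.71 and 3.56 percentage points (paired exact p = 0.50 and 0.75). Same-numbered libraries had correlations of -0.45, -0.32 and 0.20, taken after the mean of each group was removed. With 3 libraries per group, these values cannot show whether the numbers pair the libraries. The share differences ranged from 0.072 to 2.55 and from 0.68 to 6.84 percentage points without a library. The difference in median UMIs was -4.17, 7.17 with at most 10% mitochondrial UMIs, and -30.3 to 28.2 without a library; in median genes it was -14.5, 5.50 and -35.8 to 11.5.

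Of 381 alternative values for 27 named genes, 369 kept direction and side of the threshold. With a replicate block, the log2 fold change of Lrp1 was -0.040, against 0.15 without it, and that of Car4 0.046, against -0.40. Leaving out a library gave -0.45 to 0.52 for Lrp1 (lowest without KO3), -0.84 to 0.93 for Car4 and -0.52 to 0.45 for Ctla2a (both highest without WT3), -1.35 to 0.29 for Apoe (highest without WT1) and -0.26 to 1.36 for Kdr (lowest without WT1). Rpl17, Bche, Emb, Hspa1a and Prg4 passed without the filter (edgeR adjusted p = 0.0307, 0.00407, 0.00214, 0.00444 and 2.89e-10). The causes were not tested. With 47736 to 242767 UMIs per library, genes of few UMIs, such as Vldlr, could not be compared.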
